A study of Mus musculus with 10 samples.

Results

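The genes described here are Nfil3, Zeb2 and Id2, the 3 genes deleted in various combinations in this series. Each was read from probe sets annotated to it and to no other gene. Each has 1 such probe set, which gives 3 genes of the 19938 measured. RNA of conventional type 1 dendritic cells (cDC1s) sorted from mouse spleen was hybridised to 10 Affymetrix arrays. The cells were Zeb2 KO (n = 3), Nfil3 Zeb2 DKO, lacking Nfil3 and Zeb2 by label (n = 2), Zeb2 Id2 DKO, lacking Zeb2 and Id2 by label (n = 2), or WT (n = 3). Every deleted genotype thus lacks Zeb2 by label, and loss of Nfil3 or of Id2 was measured only on top of it. The driver of each deletion, the strain, the sex and the age of the mice are not given in the sources used here, nor is the gate of the sort. Nothing says that the replicates came from separate mice, so each p-value reflects the spread among these arrays alone, which may be technical. The question the design poses is how the response to loss of Zeb2 alone changes when Nfil3 or Id2 is lost as well.

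All 3 genes encode transcriptional regulators of dendritic cell development. NFIL3 is a basic leucine zipper protein that represses genes with PAR-type binding sites. ZEB2 is a zinc finger and homeodomain protein that binds paired E-box-like sites and mostly represses, with partners such as the CtBP corepressors and SMAD proteins. ID2 has a helix-loop-helix but no DNA-binding region, and it holds E proteins such as TCF4 away from DNA. In mouse dendritic cell progenitors NFIL3 is known to lower Zeb2, ZEB2 to lower Id2, and Id2 to mark commitment to cDC1s, so that the genes form a chain of repression.

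The deposited values are RMA intensities on a linear scale, and levels below are log2 of them. Median intensity per array was 76.3 to 82.9. The correlation between arrays of 1 genotype was 0.993 to 0.997, except for Zeb2 KO replicate 3, which had 0.986 and 0.987 with the other Zeb2 KO arrays. For some genes, among them Zeb2, its neighbours and Auh, values set against or in Zeb2 KO are also given without that array. The cDC1 label was checked on 10 markers, of which 1, Cadm1, passed the test in any comparison. Cadm1 fell where Id2 was lost too, by a log2 fold change of -0.87 against WT (adjusted p = 0.00225). The value was -0.66 against Zeb2 KO (adjusted p = 0.0187) and -0.73 against Nfil3 Zeb2 DKO (adjusted p = 0.0146). With only the 2 groups compared fitted, that against Zeb2 KO did not pass (adjusted p = 0.226), nor did it with a replicate block (0.0597). Without Zeb2 Id2 DKO replicate 2 the values were -0.58 against Zeb2 KO and -0.64 against Nfil3 Zeb2 DKO. Over all genes 1.43% were called in Zeb2 Id2 DKO against WT, 0.497% against Zeb2 KO and 0.792% against Nfil3 Zeb2 DKO. Of the 10 markers, 6 had a positive log2 fold change in Zeb2 Id2 DKO against WT. Xcr1 averaged 11.63 log2 in the Zeb2 KO arrays, 11.58 with Nfil3 lost too, 11.42 with Id2 lost too and 11.57 in WT. Genotypes were compared with limma, a linear model fitted to all genes and arrays with p-values adjusted over 19938 genes in each of 6 comparisons. A gene passed at an adjusted p under 0.05. In sorted bulk cells, fewer cells of a type and less RNA per cell cannot be told apart.

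Nfil3 fell to a small remainder in the arrays labelled as lacking it, and did not pass the test in response to loss of Zeb2 or Id2. Its levels were 10.13, 10.12 and 10.41 log2 in Zeb2 KO, 6.197 and 7.09 in the Nfil3 Zeb2 DKO arrays, 10.21 and 10.28 in Zeb2 Id2 DKO, and 9.98, 10.77 and 10.68 in WT. Both Nfil3 Zeb2 DKO arrays lay below every other array, while the arrays of Zeb2 KO, Zeb2 Id2 DKO and WT overlapped. On the linear scale Nfil3 Zeb2 DKO had 73.4 and 136 units of intensity, against 1117, 1115 and 1363 in Zeb2 KO. The remainder, which may hold background signal, was 8.37% of the Zeb2 KO level (log2 -3.58, 95% confidence interval -4.17 to -2.99, adjusted p = 0.00125) and 7.00% of the WT level (log2 -3.84, -4.43 to -3.25, adjusted p = 0.000622). In both comparisons Nfil3 had the smallest p of all genes and was the only gene called, which is 0.00502% of the genes tested. Nfil3 was also 12.2-fold higher in Zeb2 Id2 DKO than in Nfil3 Zeb2 DKO (log2 3.61, 2.96 to 4.25, adjusted p = 0.000403), a comparison in which 0.792% of all genes were called, 0.582% as higher and 0.211% as lower. These contrasts check the label and are no response of the gene.

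The response of Nfil3 to loss of Zeb2 was bounded but not resolved. Its log2 fold change was -0.26 (-0.79 to 0.27, adjusted p = 0.895) in Zeb2 KO against WT, a comparison in which 0.0201% of genes were called, 0.015% as lower. In Zeb2 Id2 DKO against WT it was -0.23 (-0.82 to 0.36, adjusted p = 0.929), with 1.43% of genes called, 0.878% as higher and 0.557% as lower. The WT arrays were the more spread, with an SD of 0.44 (n = 3) against 0.17 in Zeb2 KO (n = 3) and 0.047 in Zeb2 Id2 DKO (n = 2), since WT replicate 1 lay below all 5 arrays with Zeb2 deleted and Nfil3 intact. Without that array the value in Zeb2 KO was -0.51 and in Zeb2 Id2 DKO -0.48, and without WT replicate 2 they were -0.11 and -0.082 (adjusted p 0.546 to 1.0). Those 5 arrays averaged 10.23 ± 0.12 log2 and the 3 WT arrays 10.48 ± 0.44 (SD), a difference of -0.25 (exact two-sided permutation test, p = 0.25, where the smallest possible is 0.0357). That difference was -0.50 without WT replicate 1 (p = 0.0952 by the same exact permutation test) and -0.099 without WT replicate 2 (p = 0.667). Further loss of Id2 left Nfil3 at 0.028 log2 relative to Zeb2 KO (-0.56 to 0.62, adjusted p = 0.994, with 0.497% of genes called, 0.366% as higher and 0.13% as lower).

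Id2 was near the level of unexpressed genes where it was deleted, and passed no test among the other genotypes. It stood at 10.08, 9.89 and 10.29 log2 in Zeb2 KO, 10.50 and 10.40 in the Nfil3 Zeb2 DKO arrays, 5.01 and 4.98 in Zeb2 Id2 DKO, and 10.15, 10.32 and 10.43 in WT. The Zeb2 Id2 DKO arrays lay apart from the other 8, which overlapped in part. In linear units Id2 had 32.3 and 31.5 in Zeb2 Id2 DKO, a reading among those of unexpressed genes, so that the estimated shares left may be background in part or in whole: 2.93% of the Zeb2 KO level (log2 -5.09, -5.36 to -4.83, adjusted p = 1.01e-08), 2.28% of the Nfil3 Zeb2 DKO level (log2 -5.46, adjusted p = 1.28e-08) and 2.53% of the WT level (log2 -5.31, adjusted p = 6.58e-09). No gene had a smaller p in any of these 3 comparisons. The SD of Id2 between arrays was 0.20 in Zeb2 KO, 0.067 in Nfil3 Zeb2 DKO, 0.026 in Zeb2 Id2 DKO and 0.14 in WT.

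Id2 did not pass the test where Zeb2 was lost and Id2 was intact. In Zeb2 KO against WT the log2 fold change of Id2 was -0.21, with an interval of -0.45 to 0.026 and an adjusted p of 0.725. The upper end of that interval is a rise of 0.026 log2. The value was -0.12 without Zeb2 KO replicate 2 and -0.31 without Zeb2 KO replicate 3 (adjusted p = 0.199). In Nfil3 Zeb2 DKO the value against WT was 0.15 (-0.12 to 0.42, adjusted p = 1.0). Against Zeb2 KO it was 0.36 (0.094 to 0.63), with arrays that did not overlap and an unadjusted p of 0.0128, but an adjusted p of 0.441. Over left-out arrays that value ran from 0.26 to 0.46, the highest without Zeb2 KO replicate 3 (adjusted p = 0.0827). The 5 arrays with Zeb2 deleted and Id2 intact averaged 10.23 ± 0.25 log2 and the 3 WT arrays 10.30 ± 0.14 (SD), a difference of -0.069 (exact two-sided permutation test, p = 0.714, smallest possible 0.0357). Without Zeb2 KO replicate 2 that difference was 0.017.

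**Figure D1:**
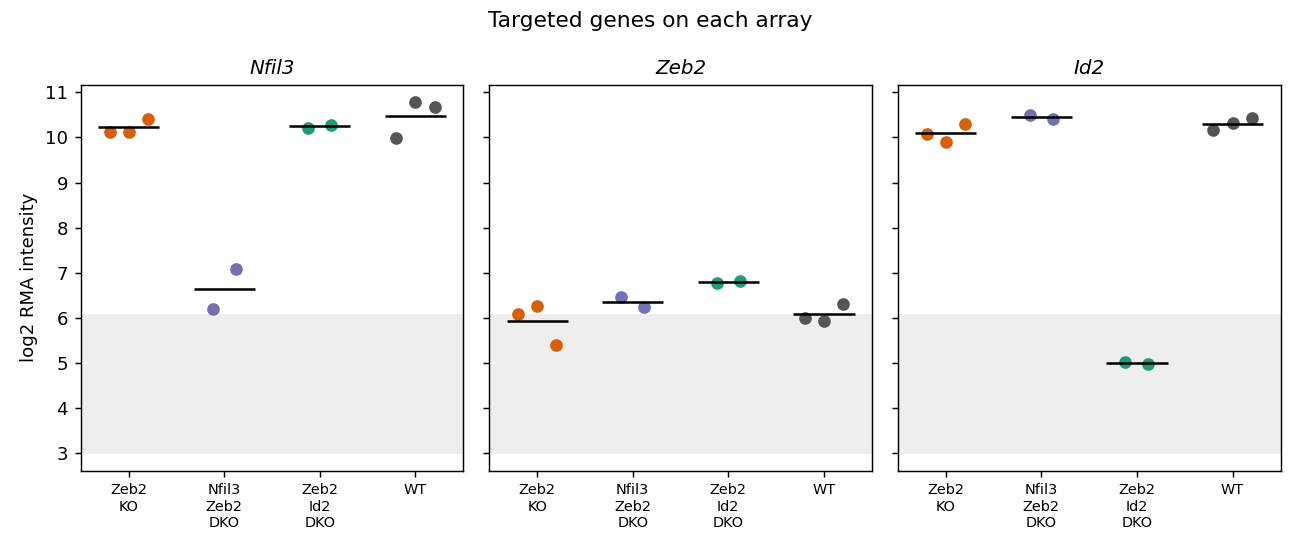
Log2 RMA intensity of Nfil3, Zeb2 and Id2 (vertical axes) on each of the 10 arrays, by genotype, with points for arrays and a bar for the mean of the genotype. The grey band runs from the lowest 5th to the highest 95th percentile per array of 1035 olfactory receptor probe sets, 3.004 to 6.06 log2. Nfil3 and Id2 drop toward or into the band only in the genotype labelled as lacking them. Zeb2 lies near the band's upper edge in WT, Zeb2 KO and Nfil3 Zeb2 DKO, except for Zeb2 KO replicate 3 inside the band (5.40). In Zeb2 Id2 DKO it lies above the band (6.78 and 6.82).

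Zeb2 was low in every genotype, and its difference from WT did not pass the test where it was deleted. Its levels were 6.10, 6.27 and 5.40 log2 in Zeb2 KO, 6.46 and 6.24 in the Nfil3 Zeb2 DKO arrays, 6.78 and 6.82 in Zeb2 Id2 DKO, and 6.002, 5.93 and 6.30 in WT. Zeb2 KO and WT overlapped, and both Zeb2 Id2 DKO arrays lay above the other 8. Against WT the log2 fold change was -0.16 in the Zeb2 KO arrays (-0.59 to 0.27, adjusted p = 0.929), 0.27 in Nfil3 Zeb2 DKO (-0.21 to 0.75, adjusted p = 1.0) and 0.72 in Zeb2 Id2 DKO (0.24 to 1.21, adjusted p = 0.184). Without Zeb2 KO replicate 3, the lowest array, the value for Zeb2 KO turned to 0.11 (adjusted p = 0.754). The level of this probe set therefore gives no check of the deletion. A probe set whose targets lie outside the deleted part would read the remaining transcript, and where the probes lie was not analysed here.

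How far above background the 3 genes read was set against 1035 probe sets of olfactory receptors, genes that dendritic cells are not known to use. These had a median of 4.09 to 4.21 log2 per array and a 95th percentile of 5.80 to 6.06. Zeb2 in WT, at 5.93 to 6.30, lay above 95.2% to 97.3% of them, and in Zeb2 KO replicate 3 above 85.1%. In Zeb2 Id2 DKO it lay above 99.0% and 99.2%. Nfil3 in Nfil3 Zeb2 DKO lay above 96.7% and 99.4% of them, at 6.197 and 7.09 log2. Id2 in Zeb2 Id2 DKO lay above 78.1% and 78.9%. Where intact, Nfil3 and Id2 exceeded all of them and stood at percentiles 93.6 to 97.1 and 93.0 to 96.2 of all 19938 genes, against 38.7 to 46.3 for Zeb2 in WT. Such ranks also carry differences in probe affinity between probe sets.

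Zeb2 gave its largest values in the genotype without Id2. Besides the 0.72 against WT, the log2 fold change of Zeb2 in Zeb2 Id2 DKO was 0.88 against Zeb2 KO (0.40 to 1.36, unadjusted p = 0.0021, adjusted p = 0.166; 0.62 without Zeb2 KO replicate 3, adjusted p = 0.0693) and 0.45 against Nfil3 Zeb2 DKO (-0.075 to 0.98, adjusted p = 0.528). In Nfil3 Zeb2 DKO against Zeb2 KO it was 0.43 (-0.052 to 0.91, adjusted p = 0.638). Both of these genotypes lack Zeb2 by label, so this contrast cannot show whether intact Zeb2 rises when its repressor Nfil3 is lost. Without Zeb2 KO replicate 3 that value was 0.17 (adjusted p = 0.539). None of the 4 values passed by limma, and both Zeb2 Id2 DKO arrays lay above all arrays of each genotype compared. The value in Zeb2 Id2 DKO against WT passed under 3 other settings: adjusted p = 0.00705 without Zeb2 KO replicate 3, 0.00782 with arrays weighted by quality and 0.0196 with only the Zeb2 Id2 DKO and WT arrays fitted. The last of these also gave 0.0463 against Nfil3 Zeb2 DKO. In 9 of the 10 fits with an array left out, the value against WT did not pass. Nor did it pass in 6 of the 8 other settings, where the adjusted p by limma reached 0.4.

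Plasmacytoid dendritic cells and monocytes normally carry Zeb2 at high level, and the summed intensities of their markers were highest in the same 2 arrays, although not every marker was higher. Positive log2 fold changes in Zeb2 Id2 DKO against WT were seen for 5 of 8 plasmacytoid and 5 of 7 monocyte markers. The summed intensity of 8 measured plasmacytoid markers was 4735 to 4784 in Zeb2 Id2 DKO, 2227 to 3175 in the Zeb2 KO arrays, 2854 to 3085 in Nfil3 Zeb2 DKO arrays and 2834 to 3047 in WT. Of these 8 markers 2 rose and none fell in Zeb2 Id2 DKO against WT, namely Siglech (log2 1.67, adjusted p = 0.00164) and Bst2 (0.98, adjusted p = 0.034). Over all genes 0.878% were called as higher and 0.557% as lower in that comparison. Tcf4 and Spib, on the same list, overlapped with WT. Tcf4 had 8.69 and 8.59 log2 in Zeb2 Id2 DKO against 8.68, 8.76 and 8.52 in WT. Spib had 6.10 and 5.92 against 7.24, 5.84 and 5.44. The summed intensity of 7 monocyte markers was 2776 to 3094 in Zeb2 Id2 DKO, 1544 to 2436 in the Zeb2 KO arrays, 1989 to 2199 in Nfil3 Zeb2 DKO arrays and 1936 to 2158 in WT, and 1 of the 7, Ms4a6c, rose against WT (log2 0.68, adjusted p = 0.045). The 10 red pulp macrophage markers summed to 741 to 840 in Zeb2 Id2 DKO and 1011 to 1419 in WT, with 2 lower and none higher. Neutrophil markers, 10 of 10 measured, summed to 7116 to 16271 in the Zeb2 KO arrays, 2729 to 4504 in Nfil3 Zeb2 DKO arrays, 5700 to 15693 in Zeb2 Id2 DKO and 1428 to 1840 in WT, and 7 of the 10 rose in Zeb2 Id2 DKO against WT and 1, Ngp, in Zeb2 KO against WT. Over all genes 1.43% and 0.0201% were called in these 2 comparisons. By limma 9 and 10 of the neutrophil markers had an unadjusted p under 0.05 there, with a median log2 fold change of 2.507 and 2.465. The 6 measured erythroid markers summed to 2026 to 2399 in Zeb2 Id2 DKO and 664 to 1299 in WT, with 2 higher. In the same comparison 3 of 7 T cell and 1 of 8 NK cell markers fell, while none of 8 cDC2 and 7 B cell markers passed by limma (4 and 1 at an unadjusted p under 0.05). The calls of Bst2 and Ms4a6c did not survive the omission of any 1 array outside the Zeb2 KO group, and that of Ms4a6c was lost also without Zeb2 KO replicate 2 (adjusted p up to 0.295 and 0.302). Left-out arrays also ended 6 of the 7 neutrophil calls of Zeb2 Id2 DKO against WT (adjusted p up to 0.329), all but that of Ngp, and the Ngp call of Zeb2 KO against WT (up to 0.181). They ended all the red pulp macrophage, erythroid, T cell and NK cell calls against WT as well (up to 0.345, 0.145, 0.405 and 0.332), while Siglech kept its call without each array. The part of these cells in the Zeb2 values was not tested.

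**Figure D2:**
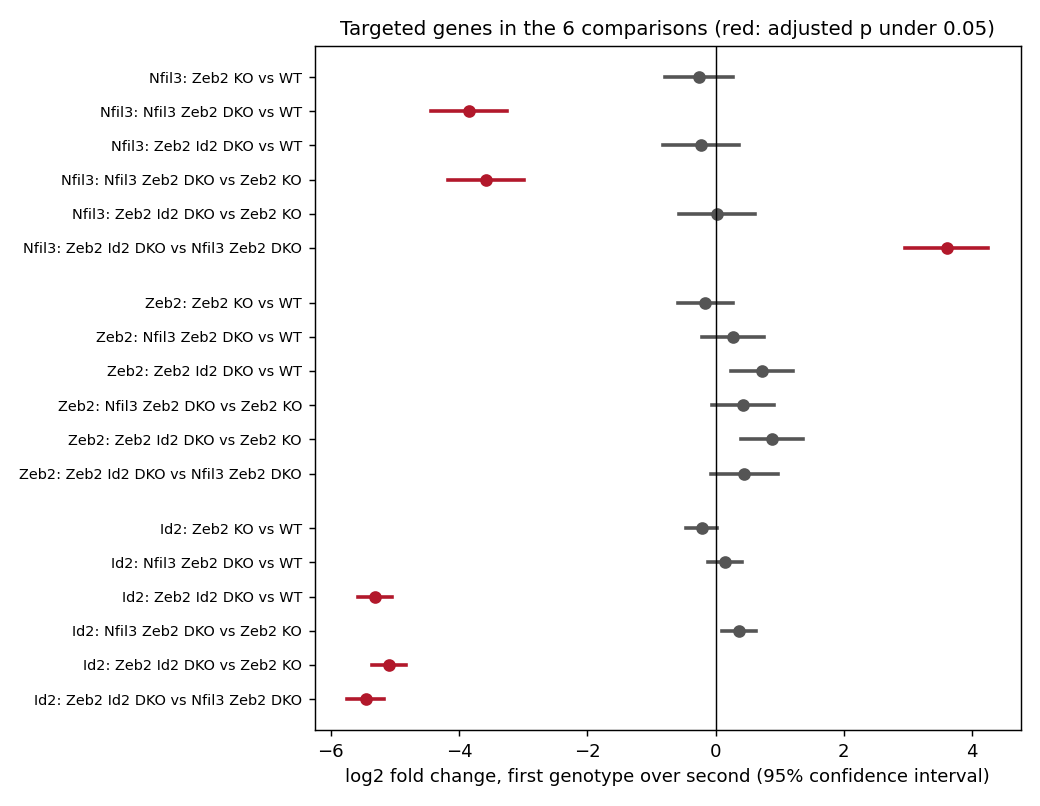
Log2 fold changes (horizontal axis) of Nfil3, Zeb2 and Id2 in each of the 6 comparisons, first genotype over second, as points with 95% confidence intervals; red marks an adjusted p under 0.05. Of 18 values, the 6 red ones are those in which Nfil3 or Id2 is deleted by label in 1 of the 2 genotypes, and the largest of the others is Zeb2 in Zeb2 Id2 DKO against Zeb2 KO, at 0.88.

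By mean level the genotypes ran, for Nfil3, Nfil3 Zeb2 DKO (6.64 log2), Zeb2 KO (10.22), Zeb2 Id2 DKO (10.25) and WT (10.48), where only the first step exceeded the spread between arrays. For Id2 the order was Zeb2 Id2 DKO (4.99), Zeb2 KO (10.09), WT (10.30) and Nfil3 Zeb2 DKO (10.45), again with only the first step past the test. For Zeb2 it was Zeb2 KO (5.92), WT (6.08), Nfil3 Zeb2 DKO (6.35) and Zeb2 Id2 DKO (6.80), and no step passed.

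Paralogs of the 3 genes did not pass the test where their relative was lost. ID1, ID3 and ID4 share the E protein binding of ID2, ZEB1 is the sister of ZEB2, and DBP, HLF and TEF are activators that share DNA sites with NFIL3. Over all genes 0.00502% to 1.43% were called in the 6 comparisons, so that no call among 7 genes says little of the paralogs. None of the 7 passed by limma in any of the 6 comparisons, and the number with an unadjusted p under 0.05 was 0 for Zeb2 KO, 0 for Nfil3 Zeb2 DKO and 1 for Zeb2 Id2 DKO, each against WT. That 1 was Zeb1, at 9.16 and 9.18 log2 in Zeb2 Id2 DKO against 8.94, 8.89 and 8.86 in WT (log2 0.27, 0.090 to 0.46, adjusted p = 0.19). Zeb1 had 9.04, 9.01 and 8.90 log2 in Zeb2 KO, 0.084 above the WT mean (-0.080 to 0.25, adjusted p = 0.89). Like Zeb2, it was highest in both Zeb2 Id2 DKO arrays.

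Id3, whose protein overlaps in role with ID2 in lymphocytes, had 5.76 and 5.60 log2 in Zeb2 Id2 DKO against 5.91, 5.88 and 6.29 in WT (log2 -0.35, -0.72 to 0.021, adjusted p = 0.532). Id1 had 6.22 and 6.24 log2 in Zeb2 Id2 DKO, against 6.31, 6.42 and 6.58 in WT (log2 -0.21, adjusted p = 0.723), and Id4 a log2 fold change of -0.0085 there (adjusted p = 0.996). Id3, Id4 and Hlf read in or at the edge of the olfactory receptor range, so a change of these transcripts may not show here, and without WT replicate 3 the values of Id1 and Id3 were -0.14 and -0.22. Among the PAR proteins in Nfil3 Zeb2 DKO against WT, Dbp had a log2 fold change of -0.13 (-0.40 to 0.13), Hlf 0.054 (-0.12 to 0.23) and Tef -0.030 (-0.23 to 0.17), with an adjusted p of 1.0 for each.

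Among 19 genes of dendritic cell regulation, 1 passed with all arrays in a comparison with WT. That was Zeb2 Id2 DKO against WT, in which 1.43% of all genes were called. Cebpa, a transcription factor of myeloid progenitors, had 8.59 and 8.82 log2 in Zeb2 Id2 DKO against 8.13, 7.84 and 7.76 in WT and rose by 0.79 (0.52 to 1.07, adjusted p = 0.0128). In Zeb2 KO against WT its log2 fold change was 0.53 (0.28 to 0.78, unadjusted p = 0.000703, adjusted p = 0.212). Without Zeb2 KO replicate 3 that value was 0.59 and passed (adjusted p = 0.0427). The level of Cebpa was 8.48, 8.53 and 8.31 in Zeb2 KO, above every WT array. In Nfil3 Zeb2 DKO it was 8.18 and 8.06 (against WT 0.21, adjusted p = 1.0; against Zeb2 KO -0.32, adjusted p = 0.508). Omitting WT replicate 2 or 3 ended the call of Cebpa (adjusted p 0.0546 and 0.0561), as did omitting Zeb2 Id2 DKO replicate 1 or 2 (0.0536 and 0.18). Of the 19, 7 had an unadjusted p under 0.05 in Zeb2 Id2 DKO against WT, and the next after Cebpa were Notch2, a receptor needed for splenic dendritic cells (log2 0.44, adjusted p = 0.0707), Etv6 (0.29, adjusted p = 0.181) and Zbtb46, a marker of conventional dendritic cells (1.07, adjusted p = 0.302; 0.54 without WT replicate 2, its lowest array at 6.42 log2). Notch2 passed in that comparison without Zeb2 KO replicate 3 (0.44, adjusted p = 0.00698). The median over the 19 was 0.14 in Zeb2 Id2 DKO against WT with all arrays, beside -0.01 over all genes.

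Irf8, the transcription factor that cDC1s depend on, had a log2 fold change of 0.15 (-0.0052 to 0.31, adjusted p = 0.689) for Zeb2 KO, -0.052 for Nfil3 Zeb2 DKO and 0.099 for Zeb2 Id2 DKO, each against WT. Against Zeb2 KO, Irf8 had -0.21 in Nfil3 Zeb2 DKO (-0.38 to -0.028, unadjusted p = 0.0275, adjusted p = 0.51). In that comparison none of the 19 passed by limma and 3 had an unadjusted p under 0.05. With all arrays, none passed in Zeb2 KO or in Nfil3 Zeb2 DKO against WT, and 1 had such a p in each.

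Of 14 genes for partners of ZEB2 and NFIL3 (CtBP and SMAD proteins, subunits of the NuRD deacetylase complex and Dr1), 1 changed, and it changed where Id2 was lost. Smad3, a transducer of TGF-beta signals, had 8.03, 7.87 and 8.14 log2 in Zeb2 KO, 8.01 and 8.11 in the Nfil3 Zeb2 DKO arrays, 7.13 and 6.90 in Zeb2 Id2 DKO, and 8.02, 7.92 and 7.85 in WT. The Zeb2 Id2 DKO arrays did not overlap with any other, and over all genes 0.497% were called against Zeb2 KO, 0.792% against Nfil3 Zeb2 DKO and 1.43% against WT. Smad3 fell by 1.0 log2 against Zeb2 KO (adjusted p = 0.00261), by 1.05 against Nfil3 Zeb2 DKO (adjusted p = 0.00288) and by 0.92 against WT (-1.16 to -0.68, adjusted p = 0.00225). No array left out ended these 3 calls (adjusted p up to 0.047), but with only the 2 groups fitted that against Zeb2 KO had an adjusted p of 0.0707. In Zeb2 KO and Nfil3 Zeb2 DKO against WT none of the 14 passed by limma, with 1 and 0 at an unadjusted p under 0.05. Ctbp1 and Ctbp2 passed in no comparison.

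**Figure D3:**
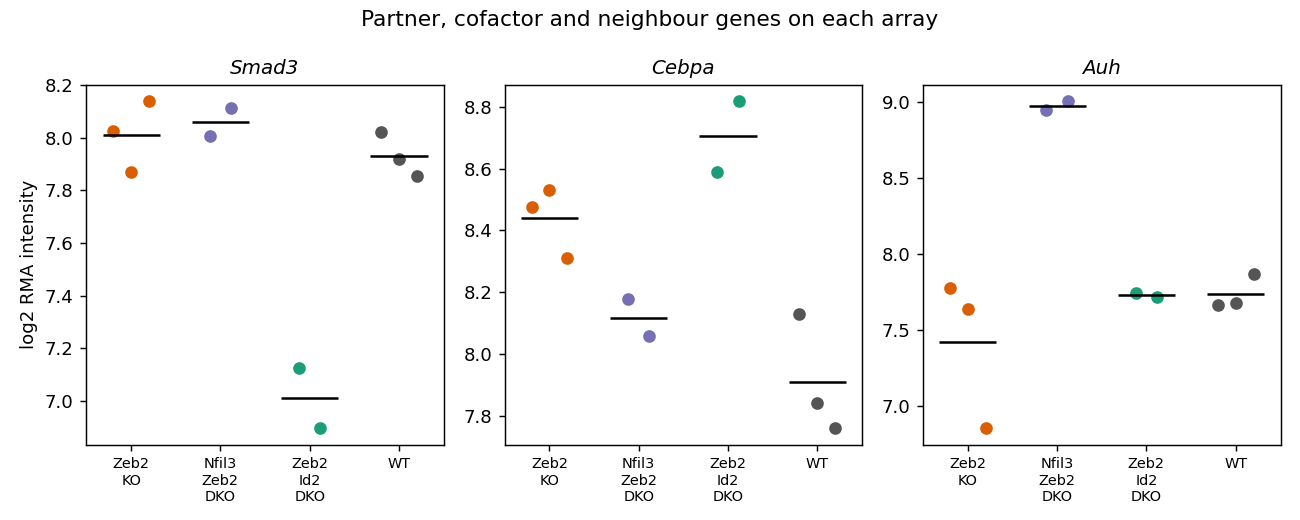
Log2 RMA intensity (vertical axes, each with its own range) of Smad3, Cebpa and Auh on each array by genotype, with a bar for the mean. Smad3 is lowest in both Zeb2 Id2 DKO arrays (7.13 and 6.90), Cebpa is highest there (8.59 and 8.82), and Auh is highest in both Nfil3 Zeb2 DKO arrays (8.95 and 9.01).

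Genes next to each deleted gene were described as well, 3 measured genes on either side in the order of the reference annotation. Beside Nfil3 on chromosome 13 the nearest measured gene on one side is Auh, which encodes an RNA-binding enzyme of leucine breakdown. Auh had 7.78, 7.64 and 6.85 log2 in Zeb2 KO, 8.95 and 9.01 in the Nfil3 Zeb2 DKO arrays, 7.74 and 7.71 in Zeb2 Id2 DKO, and 7.66, 7.68 and 7.87 in WT. Both Nfil3 Zeb2 DKO arrays lay above the other 8. The log2 fold change was 1.56 against Zeb2 KO (1.08 to 2.04, rank 3 by p among all genes, adjusted p = 0.152; 1.27 without Zeb2 KO replicate 3, adjusted p = 0.00104) and 1.24 against WT (0.76 to 1.72, adjusted p = 0.512; 0.000263 without Zeb2 KO replicate 3), so neither value passed with all arrays and both passed without that one. Auh was lower in Zeb2 Id2 DKO than in Nfil3 Zeb2 DKO (log2 -1.25, adjusted p = 0.0431). Omitting any 1 array outside the Zeb2 KO group ended that call of Auh (adjusted p 0.059 to 0.292). The other 5 neighbours, Diras2, Syk, Ror2, Sptlc1 and Msx2, passed in no comparison, and in Nfil3 Zeb2 DKO against Zeb2 KO their log2 fold changes ran from -0.16 to 0.11.

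Over all genes 0.00502% to 1.43% were called per comparison, so that no call among 6 genes says little. Beside Zeb2 on chromosome 2, none of the 6 neighbours passed by limma in any comparison, and none had an unadjusted p under 0.05 in Zeb2 KO against WT. There Kynu had a log2 fold change of -0.32, Arhgap15 of -0.25 and Gtdc1 of -0.18, and without Zeb2 KO replicate 3 these were -0.028, 0.15 and 0.070. The mean level of the 6 neighbours relative to the WT mean was -0.51 log2 in that array and 0.051 and 0.078 in the other Zeb2 KO arrays. Zeb2os, a non-coding RNA read from the opposite strand at the start of Zeb2, had 4.77, 4.74 and 4.89 log2 in Zeb2 KO, 4.71 and 4.85 in the Nfil3 Zeb2 DKO arrays, 5.03 and 4.86 in Zeb2 Id2 DKO, and 4.60, 4.65 and 4.63 in WT. All 7 arrays of deleted genotypes lay above all WT arrays, by 0.17, 0.15 and 0.31 log2 on average (adjusted p = 0.69, 1.0 and 0.16), at a level inside the range of olfactory receptor probe sets. Without Zeb2 KO replicate 3 the value of Zeb2os in Zeb2 KO against WT was 0.13 (adjusted p = 0.562). Near Id2 on chromosome 12, the 2 genes Rsad2 and Cmpk2, both interferon-induced antiviral genes, rose in Zeb2 Id2 DKO. Rnf144a lies between them and Id2 in the order of measured genes. It had -0.051 against Zeb2 KO (adjusted p = 0.953) and 0.15 against WT (adjusted p = 0.731). Rnf144a, Kidins220, Mboat2 and Rrm2, the other neighbours of Id2, passed in no comparison. Rsad2 rose by 1.32 log2 against Zeb2 KO (adjusted p = 0.0187) and by 1.22 against WT (adjusted p = 0.0157), and Cmpk2 by 1.18 (adjusted p = 0.0144) and 1.61 (adjusted p = 0.00157). Kidins220, next to Id2 on the other side, had 0.39 against Zeb2 KO (0.13 to 0.65, adjusted p = 0.331). The 2 calls against Zeb2 KO were lost without Zeb2 Id2 DKO replicate 2 (adjusted p = 0.176 for Rsad2 and 0.188 for Cmpk2) and without Zeb2 KO replicate 2 (0.0539 and 0.0557), with only the 2 groups fitted (0.145 and 0.13), and that of Rsad2 also without Zeb2 KO replicate 1 (0.0639). Against WT, the call of Rsad2 ended when WT replicate 3 (0.0752) or the second Zeb2 Id2 DKO array (0.155) was omitted. Against Nfil3 Zeb2 DKO, Rsad2 rose by 1.89 (adjusted p = 0.00362) and Cmpk2 by 1.69 (adjusted p = 0.00284), calls that ended without Nfil3 Zeb2 DKO replicate 1 (0.0702 and 0.0538).

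**Figure D4:**
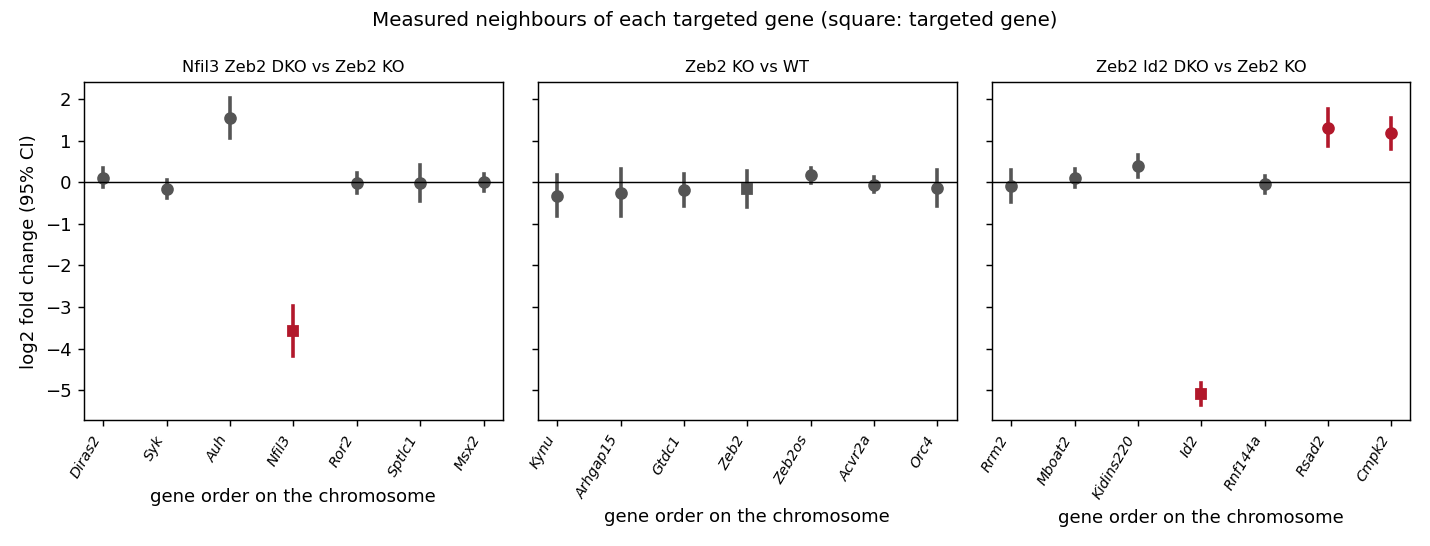
Log2 fold changes with 95% confidence intervals (vertical axis) of each deleted gene (square) and its 3 nearest measured genes on either side (circles), in chromosome order, for the contrast in which that gene is lost; red marks an adjusted p under 0.05. Next to Nfil3, Auh stands at 1.56. On one side of Id2, Rnf144a stands at -0.051, and Rsad2 and Cmpk2 beyond it at 1.32 and 1.18. On one side of Zeb2, Kynu, Arhgap15 and Gtdc1 stand at -0.32, -0.25 and -0.18, none past the test.

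The genes whose levels followed each of the 3 most closely were found by Pearson's r over the 10 arrays, as a description only, since the arrays share genotypes and deletion sets most of the variation. For Id2 they were Spint1 (r = 0.97), Smad3 (0.97), Frmd4b (0.97), Eda (0.97) and Kif1a (0.97). Over the 8 arrays with Id2 intact these values were 0.77, 0.22, 0.062, 0.57 and -0.27. For Nfil3 they were Pgap3 (r = 0.95), Bcl2l13 (0.93), Vangl1 (0.92), Zfyve27 (0.91) and Tgfb3 (0.90), and 0.19, 0.39, 0.46, 0.15 and 0.59 over the 8 arrays with Nfil3 intact. The likeness to Nfil3 and Id2 thus rested mainly on the 2 deleted arrays, Spint1 and Tgfb3 keeping the most without them. Pgap3 ranged only from 5.80 to 6.09 log2 over all arrays.

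For Zeb2 the 5 genes were Gng10 (r = 0.97), a G protein subunit gene, Anxa5 (0.96), which encodes annexin A5, Lyst (0.95), a regulator of lysosomes, Rexo2 (0.95) and the monocyte marker Ms4a6c (0.95). Without Zeb2 KO replicate 3, the array with the lowest Zeb2, r over the 9 arrays was 0.95, 0.93, 0.91, 0.91 and 0.92. In Zeb2 Id2 DKO against WT the log2 fold changes of Gng10 (0.34, adjusted p = 0.413), Anxa5 (0.33, adjusted p = 0.327), Lyst (0.37, adjusted p = 0.258) and Rexo2 (0.40, adjusted p = 0.267) did not pass.

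The sequences at the annotated starts of the 3 genes are shown because the chain of repression is thought to act on these genes' own regulatory DNA, although the windows hold only the stretch next to the start. They run from 250 bases before to 50 bases after the start and come from RefSeq on GRCm38.p6, each on the minus strand: Nfil3 at chr13:52980990-52981289, Zeb2 at chr2:45117393-45117692 (the most upstream of 4 annotated starts) and Id2 at chr12:25096043-25096342. Capitals mark E-boxes (CANNTG), the sites of E proteins, which ID2 holds off DNA.
Nfil3: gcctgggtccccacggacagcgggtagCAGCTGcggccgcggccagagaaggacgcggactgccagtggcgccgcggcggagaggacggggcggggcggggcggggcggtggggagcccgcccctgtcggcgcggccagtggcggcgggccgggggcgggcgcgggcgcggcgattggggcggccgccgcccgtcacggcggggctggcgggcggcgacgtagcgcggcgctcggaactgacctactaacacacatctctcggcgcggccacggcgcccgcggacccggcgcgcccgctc
Zeb2: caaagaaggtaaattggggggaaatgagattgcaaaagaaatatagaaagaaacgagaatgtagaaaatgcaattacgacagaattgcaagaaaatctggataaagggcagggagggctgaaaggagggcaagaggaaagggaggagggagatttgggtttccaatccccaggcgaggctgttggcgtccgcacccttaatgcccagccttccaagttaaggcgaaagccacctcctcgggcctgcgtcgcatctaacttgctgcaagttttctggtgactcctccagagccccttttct
Id2: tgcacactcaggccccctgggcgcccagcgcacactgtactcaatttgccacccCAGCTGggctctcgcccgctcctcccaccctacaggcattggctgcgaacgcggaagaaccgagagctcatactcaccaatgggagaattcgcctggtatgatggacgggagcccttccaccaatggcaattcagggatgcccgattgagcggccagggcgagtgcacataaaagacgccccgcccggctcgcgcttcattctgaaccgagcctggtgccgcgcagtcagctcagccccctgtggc
The Nfil3 and Id2 windows hold 1 E-box each, CAGCTG in both, whose first base lies 223 and 196 bases before the start. None of the 4 Zeb2 windows holds one, although those at chr2:45113230-45113529 and chr2:45113204-45113503 overlap and hold mostly the same bases. Over 32851 windows of the same length, 72.3% hold at least 1 CANNTG and 16.3% hold CAGCTG, a letter string that reads alike on both strands. The ZEB-type string CACCTG, searched on both strands and itself a kind of CANNTG, is in none of these 6 windows and in 20.2% of all. The NFIL3-type strings TTACGTAA (the same on both strands) and TTATGTAA (TTACATAA on the other) are in none of the 6 and in 0.119% and 0.938% of all. GC content was 81.7% in the Nfil3 window, 49.3% in the Zeb2 window shown and 63.3% in the Id2 window, beside a median of 52.7% over all. A match is a string of letters only, and its absence says nothing of sites elsewhere.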

How the data were processed

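RNA of sorted splenic cDC1s was measured on 10 arrays. Per the submitters' processing notes the authors used Affymetrix Expression Console with RMA, and the deposited values are RMA intensities on a linear scale (5.05 to 16019). Which annotation they used is not stated in those notes. Log2 was taken of these intensities without further normalization. Of 28853 probe sets 21789 named 1 gene, 1621 several and 5443 none, and identifiers of 21698 matched the reference gene table, which changed 0 symbols. For 999 genes with several probe sets the one with the highest mean was used, which left 19938 genes. No gene was filtered out, so all 3 members entered the tests.

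One level for each genotype was estimated from the 10 arrays with limma 3.58.1 in R 4.3.3 (6 residual and 4.47 prior degrees of freedom), with Benjamini-Hochberg adjustment over all genes. The fit was checked on simulated data with known changes. Errors are SDs or 95% confidence intervals, and the number of arrays limits precision. Figures and sequence searches used Python 3.11.15.

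Members, lists and tests were chosen with earlier results of these data known. Named genes were the 3 members, their 7 paralogs, the 3 nearest measured genes on each side, the 5 genes most alike by correlation, and up to 4 genes per list (19 regulators and 14 cofactors, and marker lists of other cells) with the smallest p in a comparison. Irf8, Xcr1, Ctbp1, Ctbp2, Tcf4 and Spib were named beyond that rule. Alternatives were an intensity trend, robust variances, quantile normalization, a filter on low genes, the mean of a gene's probe sets, only the 2 groups compared, array weights, a replicate block and each array left out.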

Additional observations from a re-analysis of the deposited data

How the results depend on the processing

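Of 346 alternative values of the 3 genes, 336 kept both their direction and their side of the threshold, 4 came to pass and 6 turned in direction; none lost a call. The 4 were Zeb2 in Zeb2 Id2 DKO against WT, with array weights (log2 0.74), with only the 2 groups fitted (0.72) and without Zeb2 KO replicate 3 (0.72), and Zeb2 in Zeb2 Id2 DKO against Nfil3 Zeb2 DKO with only the 2 groups fitted (0.45). Leaving out arrays moved the first from 0.65 to 0.84. Zeb2 in Zeb2 KO against WT turned to 0.097 with array weights, and ran from -0.33 to 0.11 over left-out arrays. Nfil3 in Zeb2 Id2 DKO against Zeb2 KO ran from -0.021 to 0.12, and turned without Zeb2 KO replicate 1 (-0.019) or 2 (-0.021) or Zeb2 Id2 DKO replicate 2 (-0.0055). Id2 in arrays with Zeb2 deleted and Id2 intact against WT ran from -0.14 to 0.017. The causes were not tested.

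Counts of genes called over all genes moved far more. In Zeb2 KO against WT, 4 were called, 2 with robust variances, 1 with only the 2 groups, 75 with array weights, 8 with the replicate block and 0 to 165 with an array left out. In Nfil3 Zeb2 DKO against WT, 1 was called, 2 with only the 2 groups, 23 with array weights and 1 to 7 with an array left out. In Zeb2 Id2 DKO against WT, 286 were called, 554 with only the 2 groups, 1076 with array weights, 183 with the replicate block and 67 to 760 with an array left out. In Nfil3 Zeb2 DKO against Zeb2 KO, 1 was called, 4 with array weights and 1 to 106 with an array left out. In Zeb2 Id2 DKO against Zeb2 KO, 99 were called, 20 with only the 2 groups, 256 with array weights and 25 to 148 with an array left out. In Zeb2 Id2 DKO against Nfil3 Zeb2 DKO, 158 were called, 833 with only the 2 groups, 1139 with array weights and 23 to 704 with an array left out. The highest count over left-out arrays was without Zeb2 KO replicate 3 in all 6 comparisons, in Nfil3 Zeb2 DKO against WT tied with the count without Nfil3 Zeb2 DKO replicate 2.

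Replicate numbers did not pair the arrays: the correlation of deviations between same-numbered arrays was -0.31 to 0.16 and over 0.1 in 1 of 13 pairs, so the replicate block changed no call of the 3 genes but rests on a number alone. Of 756 alternative values of 42 called results for other genes, 594 kept their call, 162 lost it and 0 turned, among them Cmpk2 in Zeb2 Id2 DKO against Zeb2 KO with the replicate block (adjusted p = 0.0571). Signal over background limits Zeb2, whose WT level lay close to that of olfactory receptor probe sets.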
